A study of Mus musculus with 22 samples.

Results

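The basement membrane is the thin sheet of matrix that surrounds blood vessels and covers the surface of the nervous system. Its laminin and type IV collagen networks are joined by linker proteins and by large proteoglycans, and looser fibrillar matrix lies outside it. The account covers 10 genes of these layers, chosen by name, among the 55376 genes counted. They are the linkers Nid1 and Nid2, the heparan sulphate proteoglycans Hspg2 and Agrn, the adhesive glycoprotein gene Fn1, the collagen-binding protein gene Sparc, the testican gene Spock2, and the small leucine-rich proteoglycan genes Dcn, Lum and Bgn. All 10 were detected in every library and passed the filter on low counts in every comparison.

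RNA was sequenced from cells sorted from mouse embryos at E12.5. Endothelial cells (EC) were sorted by a Kdr::Cherry reporter, a fluorescent mark of a VEGF receptor gene of blood vessels, and motor neurons (MN) by an ISL1::GFP reporter. In the knockout series the groups were Plxnd1 knockout EC (KO EC, 3 libraries), wild-type EC (WT EC, 2 usable libraries), Plxnd1 knockout MN (KO MN, 3) and wild-type MN (WT MN, 3). Plxnd1 encodes plexin-D1, a semaphorin receptor. The sources used here name the genotype as Plxnd1 knockout or WT and give no further allele. For these groups the spinal cord and its surrounding meninges were dissected and pooled by genotype before sorting. In the regional series all embryos were WT, and EC came from the spinal cord parenchyma (spinal EC, 5 libraries) or from the meninges of the cord (meningeal EC, 5). Spinal EC came from ventral cord in batches 1 to 3 and from whole cord in batches 4 and 5. How many embryos each library pooled is not stated in the labels, and the p-values below therefore reflect differences among libraries, which may be technical.

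Nidogens bind laminin and type IV collagen and tie these networks together. Perlecan (Hspg2) and agrin (Agrn) carry heparan sulphate chains that hold growth factors in the sheet, and agrin made by motor neurons is known for clustering acetylcholine receptors at the neuromuscular junction. Fibronectin is the ligand of several integrins on vessel and neural crest cells. Decorin (Dcn), lumican (Lum) and biglycan (Bgn) bind collagen fibrils and are known products of fibroblasts, and the meninges of the embryo are rich in such cells.

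Total counts per library lay between 20680902 and 27035395 in the knockout series and between 15685784 and 21493255 in the regional series. Levels are given as CPM, counts scaled to a common library size with TMM factors, and are not compared between the series, which were counted with different settings. The deposited file of WT EC batch 2 was identical to that of KO EC batch 1 in every gene and was left out. Plxnd1 lay at 15.4 to 28.9 CPM in KO EC against 175 to 213 CPM in WT EC, and at 0.646 to 1.79 CPM in KO MN against 5.14 to 12.1 CPM in WT MN. The 12 endothelial markers summed to 559 to 1040 CPM in KO EC, 838 to 1300 CPM in WT EC, 1870 to 4230 CPM in spinal EC and 992 to 2050 CPM in meningeal EC. The labelled EC libraries also held much RNA of fibroblast and mesenchyme markers: these 13 genes summed to 14000 to 16900 CPM in KO EC, 14200 to 14400 CPM in WT EC, 1340 to 2560 CPM in spinal EC and 13500 to 19800 CPM in meningeal EC. Pdgfra, a defining marker of that list, lay at 349 to 365 CPM in WT EC, where Pecam1, a defining endothelial marker, lay at 65.6 to 110 CPM. In such bulk samples fewer cells of a type and less RNA per cell cannot be told apart.

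On mm10 the members lie on chromosomes 13 (Nid1), 14 (Nid2), 4 (Hspg2 and Agrn), 1 (Fn1), 11 (Sparc), 10 (Spock2, Dcn and Lum) and X (Bgn). Dcn (positions 97479609 to 97518143) and Lum (97565128 to 97572703) are neighbours on the plus strand of chromosome 10, with 46984 bases between them. Agrn spans positions 156165290 to 156197488 on the minus strand of chromosome 4, and Spock2 spans positions 60106219 to 60135198 on the plus strand of chromosome 10. Exons of Nid2 overlap Rtraf on the opposite strand over 8.96% of their length, those of Fn1 overlap Apol7d over 2.68% and those of Nid1 overlap Gm48682 over 2.35%. The knockout series was counted without regard to strand, so reads of these stretches cannot be told apart there.

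Agrn and Spock2 were the members higher in spinal EC than in meningeal EC, and the 250 bases before their RefSeq starts are shown for that reason (GRCm38.p6, 5′ to 3′ on the strand of the gene). RefSeq promoter entries matched 6 of the 10 members. Capitals mark matches, on either strand, to the GC box GGGCGG, the ETS core CCGGAA, the TCF/LEF core CTTTGA and the TATA box TATAAA. The Agrn stretch is chr4:156197489-156197738 on the minus strand and the Spock2 stretch is chr10:60106007-60106256 on the plus strand. The RefSeq start of Spock2 lies inside the gene span given above, which is that of the annotation used for counting, so the last bases of its stretch lie within that span.
Agrn: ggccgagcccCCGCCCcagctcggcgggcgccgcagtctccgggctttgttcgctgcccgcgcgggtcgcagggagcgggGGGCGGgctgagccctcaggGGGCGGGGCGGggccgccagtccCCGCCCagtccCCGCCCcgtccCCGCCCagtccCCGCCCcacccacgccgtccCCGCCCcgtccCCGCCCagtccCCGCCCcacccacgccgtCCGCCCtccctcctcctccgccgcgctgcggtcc
Spock2: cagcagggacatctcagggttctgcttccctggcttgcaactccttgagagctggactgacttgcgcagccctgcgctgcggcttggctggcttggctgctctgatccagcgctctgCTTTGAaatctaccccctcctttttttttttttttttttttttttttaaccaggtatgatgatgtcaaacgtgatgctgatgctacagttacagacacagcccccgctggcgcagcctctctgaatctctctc
The Agrn stretch held 12 GC box matches, overlapping ones included, no other match, and a GC content of 83.6%. The Spock2 stretch held 1 TCF/LEF core and no GC box, at a GC content of 51.2%. Among 32536 distinct promoter windows of the same length, 33% held a GC box, 13.9% a TCF/LEF core, 12.1% an ETS core and 12.3% a TATA box, and the median GC content was 52.4%. No motif of the 4 was in both stretches.

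Spinal EC were set against meningeal EC to ask how vessels inside the cord differ from those of its covering. Of the 10 members, Agrn and Spock2 rose in spinal EC and Nid2, Dcn and Lum fell, while Nid1, Hspg2, Fn1, Sparc and Bgn did not pass the test. Across all 16213 genes tested, 24.8% were higher and 23% were lower (47.8% in either direction), so a count of 2 higher and 3 lower members is close to that background. On the log2 scale the sizes ranged from 3.20 for Spock2, a 9.20-fold higher level, to -5.32 for Lum, which was -6.97 with batch as a block, -4.64 in the ventral cord batches alone and -9.51 in the whole cord batches alone. The median log2 fold change was -0.01 over the members and 0.01 over all genes tested.

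**Figure D1:**
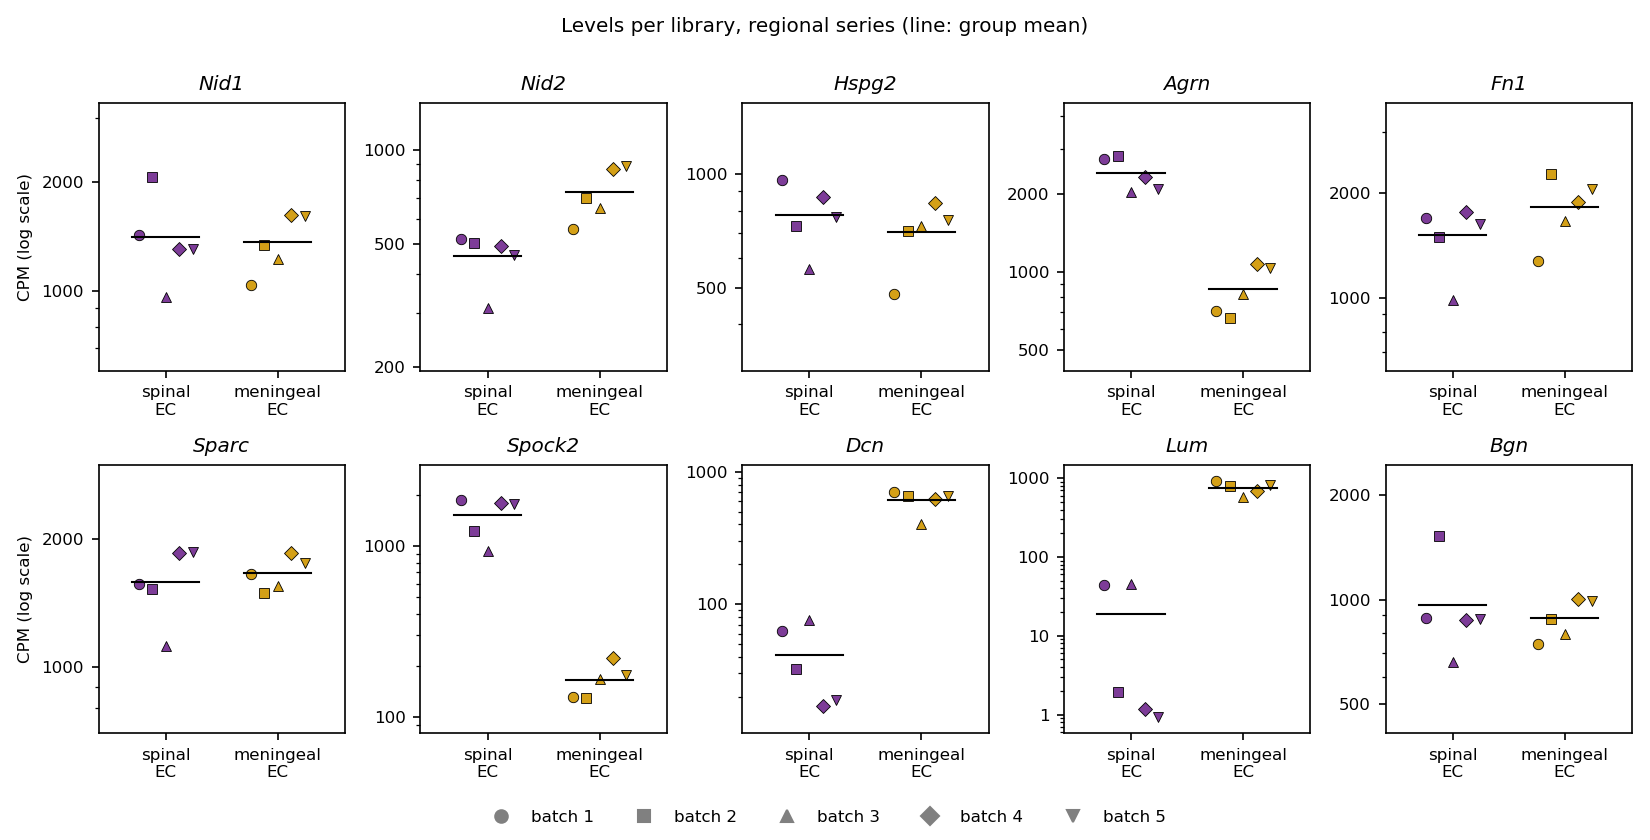
CPM of each member (log scale) in spinal EC libraries (left) and meningeal EC libraries (right), with 1 point per library, a marker shape per batch and a line at the group mean. Agrn and Spock2 are higher in all 5 spinal EC libraries than in any meningeal EC library, and Nid2, Dcn and Lum are lower in all 5.

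Among the linkers, Nid1 had 1429, 2063, 968, 1307 and 1311 CPM in spinal EC batches 1 to 5, against 1040, 1342, 1228, 1627 and 1616 CPM in the meningeal EC of the same batches. The groups overlapped, with a log2 fold change of 0.05 ± 0.20 (standard error, SE; adjusted p = 0.869). Nid2 had 519, 501, 311, 491 and 459 CPM in spinal EC against 559, 700.4, 651, 872 and 888 CPM in meningeal EC. Every spinal EC library lay below every meningeal EC library, and Nid2 fell by 0.69 ± 0.17 on the log2 scale (adjusted p = 0.0057). Within the ventral cord batches the Nid2 difference was -0.56 with an adjusted p of 0.0665, which does not pass, and within the whole cord batches it was -0.90 with an adjusted p of 9.02e-07. Over the 17 alternatives tried the adjusted p of Nid2 ranged from 9.02e-07 to 0.0665. In the 2 whole cord batches alone 6 members were lower, where 26.6% of genes were: Nid2, Dcn and Lum and also Nid1 (log2 fold change -0.32, adjusted p = 0.00244), Fn1 and Bgn. Per length, the ratio of Nid1 to Nid2 RPKM was 2.13 to 3.30 in spinal EC and 1.46 to 1.53 in meningeal EC, without overlap.

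The heparan sulphate proteoglycans moved unequally. Agrn had 2736, 2817, 2045, 2321 and 2098 CPM in spinal EC, against 704, 663, 822, 1070 and 1032 CPM in meningeal EC. The lowest spinal EC library lay above the highest meningeal EC library, and the level was 2.80-fold higher (log2 fold change 1.49 ± 0.18, adjusted p = 2.28e-05). Within batches the Agrn difference was 1.96, 2.09 and 1.31 in the ventral cord batches and 1.12 and 1.02 in the whole cord batches, on the log2 scale. Hspg2 had 965, 728, 560, 871 and 770.5 CPM in spinal EC against 481, 706, 729, 837 and 754 CPM in meningeal EC. These ranges overlapped, and the log2 fold change was 0.15 ± 0.18 (adjusted p = 0.507). The ratio of Agrn to Hspg2 RPKM was 4.86 to 7.05 in spinal EC and 1.71 to 2.67 in meningeal EC.

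Fn1 did not separate the regions: its levels were 1701, 1502, 991, 1762 and 1638 CPM in spinal EC and 1281, 2270, 1668, 1885 and 2056 CPM in meningeal EC, with a log2 fold change of -0.27 ± 0.20 (adjusted p = 0.274). Sparc, the member with the highest mean level per length in both regions, had 1563, 1523, 1121, 1850 and 1861 CPM in spinal EC and 1651, 1494, 1548, 1851 and 1757 CPM in meningeal EC. Its log2 fold change was -0.07 ± 0.16 (adjusted p = 0.748). Both genes were lowest in spinal EC batch 3, which also had the lowest sum of endothelial markers among spinal EC libraries (1870 CPM) and the lowest level of Hspg2, Nid1, Nid2, Spock2, Agrn and Bgn there. In the whole cord batches alone Fn1 was lower in spinal EC (log2 fold change -0.23, adjusted p = 0.0295).

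Spock2 encodes testican-2, a secreted proteoglycan with a SPARC-like domain that is abundant in the nervous system. It had 1862, 1227, 938, 1795 and 1763 CPM in spinal EC, against 131, 129, 168, 222 and 175 CPM in meningeal EC. The groups were far apart, and the log2 fold change was 3.20 ± 0.23 (adjusted p = 5.63e-07). Within batches the log2 difference lay between 2.48 in batch 3 and 3.83 in batch 1. Neural RNA was also higher in spinal EC, with 6 of 8 neural progenitor markers higher and none lower. These 8 markers summed to 1970, 1260, 1990, 1130 and 1130 CPM in spinal EC batches 1 to 5 and 803 to 965 CPM in meningeal EC. Pax6 and Olig2, defining genes of that list, were under 1 CPM in every meningeal EC library. The 8 motor neuron markers summed to 57.1 to 98.3 CPM in spinal EC and 34.5 to 84.9 CPM in meningeal EC, with 5 of 8 higher. Endothelial markers were higher as well, with 9 of 12 past the threshold. Their sum was 3620, 2810, 1870, 4230 and 4050 CPM in spinal EC batches 1 to 5. Spinal EC batch 3 had the highest neural progenitor sum, the lowest endothelial sum and the lowest Agrn and Spock2 of that group. Spinal EC batch 1, with a near-equal neural progenitor sum of 1970 CPM, had the highest Spock2 (1862 CPM) and 2736 CPM of Agrn. The part of these markers in the Agrn and Spock2 results was not tested.

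The small leucine-rich proteoglycans split. Dcn had 62.7, 32.7, 75.5, 17.1 and 19.0 CPM in spinal EC, against 703, 659, 401, 626 and 656 CPM in meningeal EC. The groups did not overlap, and Dcn fell by 3.88 ± 0.41 on the log2 scale (adjusted p = 9.38e-06). Lum had 44.7, 1.91, 45.8, 1.18 and 0.933 CPM in spinal EC, against 921, 788, 572, 692 and 822 CPM in meningeal EC. Its level in spinal EC batches 1 and 3 was far above that in the other three spinal EC libraries, and all 5 lay below meningeal EC. Lum fell by 5.32 ± 1.03 (adjusted p = 0.001), and its size depended on the libraries. With batch as a block the log2 fold change of Lum was -6.97 ± 1.12 (adjusted p = 0.000954). It was -4.64 in the ventral cord batches and -9.51 in the whole cord batches, and -5.97 to -5.01 with 1 library left out, furthest from the pooled value without spinal EC batch 3 and next without spinal EC batch 1. For Dcn it was -3.39 in the ventral cord batches and -5.16 in the whole cord batches. Bgn had 886, 1523, 661, 874 and 877 CPM in spinal EC and 747, 880.2, 794, 1001 and 992 CPM in meningeal EC. The Bgn ranges overlapped, with a log2 fold change of 0.13 ± 0.20 (adjusted p = 0.632), although in the whole cord batches alone it was lower (-0.20, adjusted p = 0.0326).

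Per length, Bgn stood at 7.02 to 41.0 times Dcn in spinal EC and at 0.851 to 1.59 times Dcn in meningeal EC, as ratios of RPKM. The ratio of Dcn to Lum was 1.77 to 25.7 in spinal EC and 0.887 to 1.14 in meningeal EC, so the neighbours Dcn and Lum kept a nearly even ratio in the meninges and not in the cord. The fibroblast and mesenchyme list differed between regions in the same direction as Dcn and Lum. All 13 of its genes were lower in spinal EC. Its sum was 2560, 2240, 1900, 1470 and 1340 CPM in spinal EC batches 1 to 5 and 13500 to 19800 CPM in meningeal EC. None of the 13 was at 0 in all libraries of a region. Mural cell markers, those of pericytes and smooth muscle, went the other way, with 7 of 10 higher and 2 lower in spinal EC. Their sum was 4850, 9100, 3630, 4610 and 4640 CPM in spinal EC and 1390 to 1850 CPM in meningeal EC. The highest mural sum, the highest Bgn and the highest Nid1 level were all in spinal EC batch 2. That library had a higher fibroblast sum than spinal EC batch 3 and less Lum, 1.91 against 45.8 CPM. In spinal EC the largest parts of that sum were Col1a1 (353 to 666 CPM), Col1a2 (213 to 600 CPM) and Col3a1 (496 to 1130 CPM). Of its other genes, Pdgfra lay at 5.56 to 56.0 CPM and Foxc1 at 60.9 to 118 CPM, so the sum can hide unlike genes. The cartilage sums were 424, 206, 437, 161 and 155 CPM in spinal EC batches 1 to 5. Those of Schwann cell and neural crest markers were 39.0, 18.3, 37.3, 15.8 and 13.5 CPM. Both were highest in batches 1 and 3, as was the neural progenitor sum. The part of these markers in the results was not tested.

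**Figure D2:**
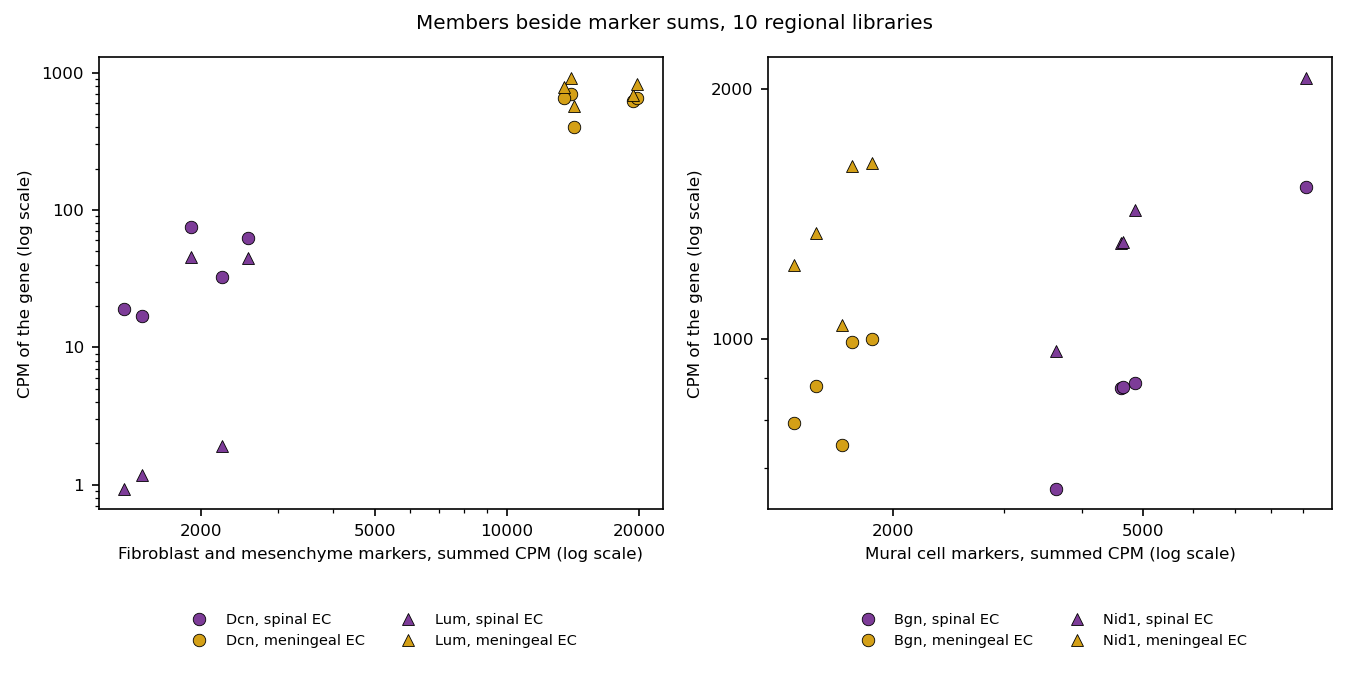
CPM of Dcn and Lum against the summed CPM of 13 fibroblast and mesenchyme markers (left), and of Bgn and Nid1 against the summed CPM of 10 mural cell markers (right), 1 point per regional library, all axes on log scales. Dcn and Lum separate the regions together with the fibroblast sum, and the spinal EC library with the mural sum of 9100 CPM has the highest Bgn (1523 CPM) and Nid1 (2063 CPM).

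The 2 dissections of the cord were compared by testing whether the spinal against meningeal difference itself differed between ventral and whole cord batches. No member passed this test, against 0.547% of all 17901 genes tested. The largest member estimates were for Lum (4.90 ± 1.33, adjusted p = 0.0884), Dcn (1.82 ± 0.46, adjusted p = 0.0733) and Agrn (0.75 ± 0.25, adjusted p = 0.141), as ventral minus whole cord differences of log2 fold change. DESeq2 called all 3 of these, among 3.7% of 32729 genes, as did edgeR without the filter on low counts, among 5.44% of 32736 genes. Neither of these 2 gene sets was filtered on low counts, so their shares are not directly comparable with the 0.547%. Without spinal EC batch 2, 6.67% of genes passed, with Dcn (adjusted p = 0.00563) and Lum (adjusted p = 7.93e-05) among them. Over the 15 alternatives the adjusted p ranged from 1.15e-11 to 0.294 for Dcn, from 9.32e-58 to 0.304 for Lum and from 0.0366 to 0.366 for Agrn. Dissection and batch cannot be told apart here, since each batch had 1 dissection. Of the fibroblast and mesenchyme markers, 3 of 13 passed the same test, all higher in the ventral minus whole difference.

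Other matrix genes were described from lists by role, and their counts stand beside the 24.8% higher and 23% lower among all genes tested. Of 15 interstitial matrix genes, all 15 fell in spinal EC, with a median log2 fold change of -3.40, beside 0.01 over all genes tested. They included Col6a2 (-2.84 ± 0.17), Postn (-3.40 ± 0.22) and Col6a1 (-3.43 ± 0.23), and this list shares Col1a1, Col1a2 and Col3a1 with the fibroblast markers. In the laminin and network collagen list 2 of 19 rose and 11 fell (median -1.01). Lama5, a laminin chain of vessel basement membranes, rose by 1.6 ± 0.18. Lama2 fell by 3.36 ± 0.33, Col15a1 fell by 2.91 ± 0.29 and Col18a1 fell by 1.82 ± 0.21. Of 14 other basement membrane proteins 4 rose and 8 fell (median -0.92), among them Ecm1 at 2.52 ± 0.17 and Fbln1, fibulin-1, at -2.02 ± 0.13.

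The chondroitin sulphate proteoglycans had the highest list median, 3.97, with 5 of the 6 tested higher in spinal EC and 1 lower. Ncan (neurocan, a neural matrix proteoglycan) rose by 5.78 ± 0.42, and Cspg4 (NG2, also in the mural marker list) rose by 2.87 ± 0.20. Vcan, versican, fell by 3.64 ± 0.43. Marker medians in this comparison were 3.48 for neural progenitor, 3.21 for motor neuron, 1.67 for mural and 1.5 for endothelial genes. The fibroblast and mesenchyme median was -3.15. The part of these markers in the list counts was not tested. Among other SPARC relatives 1 of 6 rose and 3 fell (median -0.61): Spock1 rose by 3.40 ± 0.35, as its paralogue Spock2 did, and Spock3 fell by 1.33 ± 0.17. Of the other leucine-rich proteoglycans 2 of 7 tested rose and 3 fell (median -0.57). Fmod, fibromodulin, fell by 5.73 ± 0.82 and Ogn, osteoglycin, fell by 3.93 ± 0.37, while Ecm2 rose by 2.46 ± 0.29.

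Membrane-bound heparan sulphate proteoglycans were lower in 6 of 10 tested and higher in 1 (median -0.96), with Sdc1, syndecan-1, at -2.19 ± 0.10. Of 14 matrix receptors tested 4 rose and 1 fell (median 0.24). Lrp4, the agrin receptor of muscle, rose by 0.85 ± 0.15 and Itga1, a collagen and laminin receptor, by 1.63 ± 0.25. Enzymes of glycosaminoglycan synthesis were higher in 2 and lower in 7 of 20 (median -0.12), a total close to the 47.8% of all genes, and matrix remodelling genes were higher in 2 and lower in 9 of 19 (median -0.23). Mmp9, a gelatinase, rose by 3.79 ± 0.27, and Loxl1, a collagen and elastin crosslinker, fell by 4.17 ± 0.26.

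In the knockout series, WT EC were set against WT MN in 1 fit of all 11 libraries. Of the 10 members 8 were higher in WT EC and none was lower, where 33.8% of the 19266 genes tested were higher and 31% were lower (64.8% in either direction). The median log2 fold change was 5.55 over the members and 0.02 over all genes tested. Agrn and Spock2 were the members that did not pass.

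**Figure D3:**
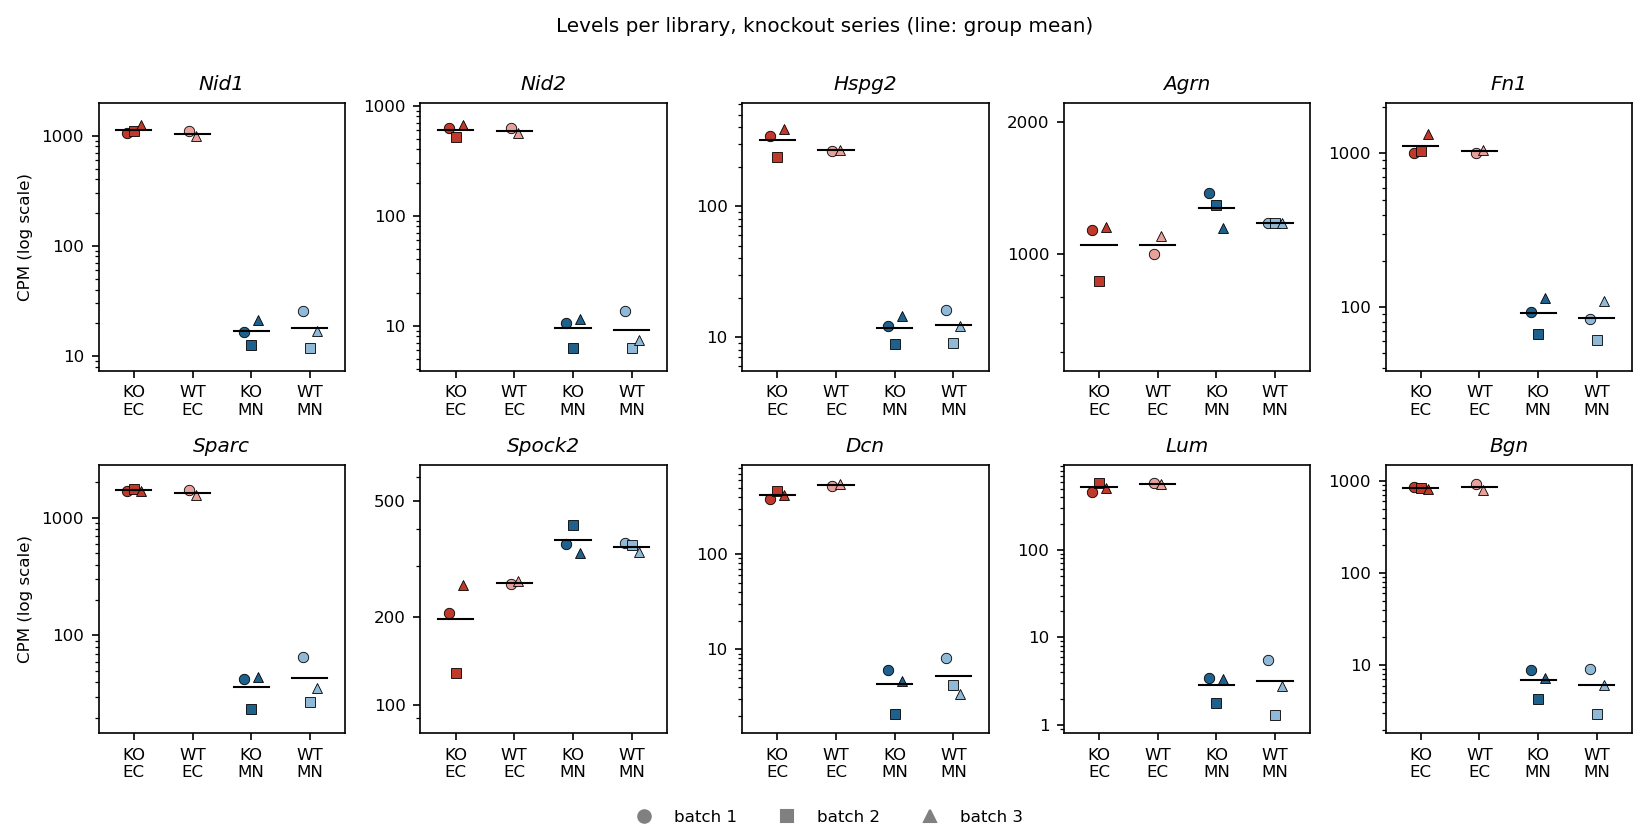
CPM of each member (log scale) in KO EC, WT EC, KO MN and WT MN libraries, 1 point per library, with a marker shape per batch and a line at the group mean. In 8 members both EC groups lie far above both MN groups, and in Agrn and Spock2 the mean of each MN group lies above that of each EC group.

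Lum had 579 and 566 CPM in WT EC batches 1 and 3, against 5.53, 1.30 and 2.81 CPM in WT MN batches 1 to 3. It had the largest difference of the members, with a log2 fold change of 7.46 ± 0.46 (adjusted p = 3.88e-07), which was 8.12 without WT MN batch 1. Bgn had 934 and 792 CPM in WT EC against 9.09, 2.93 and 6.16 CPM in WT MN (7.14 ± 0.42), and Dcn had 522 and 542 CPM in WT EC against 8.11, 4.18 and 3.35 CPM in WT MN (6.67 ± 0.42). The groups were far apart for each of these collagen-binding proteoglycans. Nid2 had 625 and 563 CPM in WT EC and 13.6, 6.20 and 7.46 CPM in WT MN (6.03 ± 0.35). Nid1 had 1097 and 987 CPM in WT EC and 25.5, 11.7 and 16.9 CPM in WT MN (5.85 ± 0.32). The nidogens thus showed differences of like size, with a Nid1 to Nid2 RPKM ratio of 1.40 in both WT EC libraries and 1.5 to 1.81 in WT MN.

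Sparc had 1709 and 1557 CPM in WT EC against 66.0, 27.4 and 36.0 CPM in WT MN (5.24 ± 0.37). Hspg2 had 265 and 268 CPM in WT EC against 16.1, 8.99 and 12.03 CPM in WT MN (4.43 ± 0.28). Fn1 had the smallest difference of the 8, with 1011 and 1052 CPM in WT EC against 83.9, 61.6 and 109.1 CPM in WT MN (3.60 ± 0.27). In WT MN the 13 fibroblast and mesenchyme markers summed to 232, 87.8 and 120 CPM in batches 1 to 3 and the 12 endothelial markers to 17.4 to 32.0 CPM. Nid1, Nid2, Hspg2, Sparc, Dcn, Lum and Bgn were highest in WT MN batch 1, where that fibroblast sum was highest. Except for motor neuron markers, the sums of the other marker lists were also highest there, with 32.0 CPM for endothelial and 38.1 CPM for mural markers. The part of these markers in the low MN levels was not tested.

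Agrn had 999.7 and 1098 CPM in WT EC and 1175, 1176 and 1177 CPM in WT MN. Both WT EC libraries lay below all WT MN libraries, by a log2 fold change of -0.17 ± 0.14 that did not pass the test (adjusted p = 0.329). Spock2 had 259 and 265 CPM in WT EC and 359, 353 and 333 CPM in WT MN, without overlap. With 2 against 3 libraries such a lack of overlap, for Agrn as for Spock2, often arises by chance. Its share over all genes was not counted. The Spock2 log2 fold change was -0.41 ± 0.23 (adjusted p = 0.136) in the fit of all 11 libraries. Spock2 passed in 3 of 18 alternatives, whose adjusted p ranged from 0.00257 to 0.325. These were the fit of the wild-type libraries alone (adjusted p = 0.00681, 31.7% of genes lower), the same contrast in the knockout libraries (-0.89 ± 0.20, adjusted p = 0.00257, 33.5% lower) and the fit without KO EC batch 2 (adjusted p = 0.0185, 31.1% lower). Across the 4 groups, mean Agrn levels ran from KO MN (1274 CPM) through WT MN (1176 CPM) and KO EC (1052 CPM) to WT EC (1049 CPM), and only WT MN and KO EC did not overlap among neighbours in that order. Mean Spock2 levels ran from KO MN (366 CPM) through WT MN (348 CPM) and WT EC (262 CPM) to KO EC (197 CPM), with overlap between the MN groups only.

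**Figure D4:**
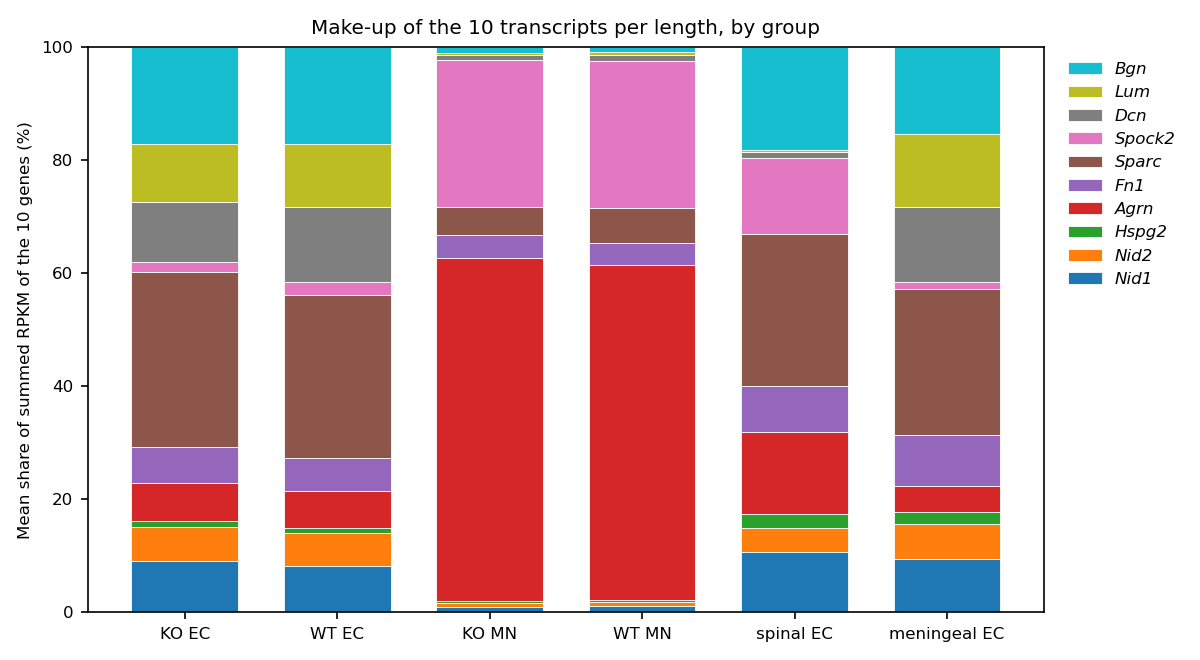
Mean share of each member in the summed RPKM (CPM per kilobase of exon) of the 10 genes, in percent, for each group. Agrn makes up 60.6% in KO MN and 59.2% in WT MN, and Sparc is the largest part in each EC group.

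Per length, the 10 transcripts had a different make-up in each cell type. In MN Agrn made up 60.6 ± 2.20% of the summed RPKM of the 10 genes in KO MN and 59.2 ± 3.37% in WT MN (SD, n = 3 each), and Spock2 made up 26.0 ± 3.01% in KO MN and 26.1 ± 1.40% in WT MN. In EC of the same series Sparc led with 30.9 ± 1.13% in KO EC (n = 3) and 28.8 ± 0.712% in WT EC (n = 2), followed by Bgn with 17.1 ± 1.0% in KO EC and 17.1 ± 1.28% in WT EC. In spinal EC Sparc held 26.9 ± 3.42%, Bgn 18.2 ± 4.11%, Agrn 14.4 ± 1.82% and Spock2 13.3 ± 2.69% (SD, n = 5). In meningeal EC Sparc held 25.7 ± 1.84%, Bgn 15.3 ± 0.882%, Dcn 13.2 ± 2.29%, Lum 13.1 ± 2.35%, Agrn 4.61 ± 0.744% and Spock2 1.32 ± 0.262% (SD, n = 5). In spinal EC Dcn held 1.08 ± 0.886% and Lum 0.411 ± 0.550%.

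Between WT EC and WT MN, where 33.8% of all genes were higher and 31% lower, all 15 interstitial matrix genes were higher in WT EC (median 5.64), as were 15 of 19 laminin and network collagen genes (median 5.38), with none lower. Of 14 other basement membrane proteins 12 were higher and 1, Ntn4, was lower (median 2.75), and of 14 matrix receptors 13 were higher and 1, Itga3, was lower (median 2.05). Matrix remodelling genes were higher in 17 and lower in 1 of 19 (median 3.59). The median over all genes tested was 0.02. Markers of several cell types were higher in WT EC in the same comparison: all 13 fibroblast and mesenchyme markers (median 6.70), all 12 endothelial markers (5.55), all 9 mural markers tested (5.98), all 8 macrophage markers (6.0) and all 8 erythroid markers (6.95). Their part in the list counts was not tested.

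Proteoglycan families were more mixed. Of 8 other leucine-rich proteoglycans tested 7 were higher and none lower (median 5.45), led by Fmod at 6.51 ± 0.31. Membrane-bound heparan sulphate proteoglycans were higher in 7 and lower in 4 of 11 (median 2.40): Gpc3 was higher by 6.11 ± 0.20, and Gpc2 was lower by a log2 fold change of -2.24 ± 0.14. Among chondroitin sulphate proteoglycans 2 of 7 were higher and 1 lower (median 1.49), with Vcan at 3.07 ± 0.30 and Ncan at -2.29 ± 0.64. Of the SPARC relatives 3 of 6 were higher and 2 lower (median 1.73). The lower ones were the testicans Spock3 (-1.89 ± 0.18) and Spock1 (-3.61 ± 0.54), and Sparcl1, the closest relative of Sparc, was higher by 4.74 ± 0.32. Enzymes of glycosaminoglycan synthesis were higher in 10 and lower in 5 of 20 (median 0.33).

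The Plxnd1 knockout was tested within each cell type. In EC no member passed, and none of the 18209 genes tested did (0%). Plxnd1 itself, at 15.4 to 28.9 CPM in KO EC against 175 to 213 CPM in WT EC, did not pass either. The lack of calls is therefore not evidence that the members were unchanged. In the same test 431 genes had an unadjusted p under 0.05. DESeq2 called 24 genes higher and 6 lower, no member among them. The members' median log2 fold change was 0.02, beside -0.01 over all genes tested. With batch as a block 0.989% of genes passed, 0.763% as higher in KO EC, and Hspg2 was the member among them.

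Hspg2 had 343, 238 and 386 CPM in KO EC batches 1 to 3, against 265 and 268 CPM in WT EC batches 1 and 3. KO EC batches 1 and 3 lay above both WT EC libraries and KO EC batch 2, which has no usable WT EC partner, lay below them. The log2 fold change was 0.28 ± 0.20 (adjusted p = 0.999), and with the batch block it was 0.45 ± 0.10 (adjusted p = 0.020). It passed under this 1 of 11 alternatives, whose adjusted p ranged from 0.020 to 1. Within batches the log2 difference was 0.37 in batch 1 and 0.52 in batch 3. The block takes up KO EC batch 2, so the blocked estimate rests on batches 1 and 3 alone. The blocked fit also has fewer residual degrees of freedom, so its SE leans more on the spread shared across genes.

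Dcn had 378, 460.3 and 418 CPM in KO EC, against 522 and 542 CPM in WT EC. All 3 KO EC libraries lay below both WT EC libraries, with a log2 fold change of -0.34 ± 0.12, an unadjusted p of 0.025 and an adjusted p of 0.999. With the batch block it was -0.42 ± 0.11 (adjusted p = 0.0708), which does not pass. Spock2 also did not overlap, with 206, 128 and 257 CPM in KO EC against 259 and 265 CPM in WT EC (-0.41 ± 0.26, adjusted p = 0.999). With 3 against 2 libraries such a lack of overlap often arises by chance, and its share over all genes was not counted. The Spock2 log2 fold change was -0.18 with the batch block (adjusted p = 0.621) and also -0.18 without KO EC batch 2. The batch block takes up KO EC batch 2, which has no usable partner, so these are not separate checks. The low Spock2 value in KO EC batch 2 went with the lowest endothelial marker sum of that group, 559 CPM.

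The other seven members had overlapping ranges in EC. Nid1 had 1049, 1103 and 1240 CPM in KO EC against 1097 and 987 CPM in WT EC (log2 fold change 0.12 ± 0.13), and Nid2 had 631, 518 and 664 CPM in KO EC against 625 and 563 CPM in WT EC (0.03 ± 0.14). Agrn had 1133, 870 and 1153 CPM in KO EC against 999.7 and 1098 CPM in WT EC (0.01 ± 0.16). Fn1 had 1002, 1034 and 1334 CPM in KO EC against 1011 and 1052 CPM in WT EC (0.13 ± 0.16), with the highest value in KO EC batch 3. Sparc varied least, with 1690, 1758 and 1694 CPM in KO EC against 1709 and 1557 CPM in WT EC (0.07 ± 0.13). Lum and Bgn had log2 fold changes of -0.14 ± 0.13 and -0.03 ± 0.12. The endothelial markers had a median log2 fold change of -0.44 and the cartilage markers one of 0.74 in the same comparison, with none past the threshold, and their part in the members' values was not tested.

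In MN no member passed either, and 0.012% of the 16695 genes tested did, all lower in KO MN. KO MN batch 1 stood apart in 5 liver markers, which summed to 563 CPM there and to 0.501 to 1.23 CPM in the other MN libraries. Without that library no member and no gene passed, and the same held without KO MN batch 2 and without KO MN batch 3. Without KO MN batch 1 the log2 fold change was 0.05 for Agrn, 0.10 for Spock2, 0.10 for Fn1, -0.35 for Sparc, -0.65 for Dcn and -0.06 for Bgn. Agrn had 1380, 1291 and 1150 CPM in KO MN against 1175, 1176 and 1177 CPM in WT MN (log2 fold change 0.11 ± 0.10, adjusted p = 1). Spock2 had 354, 414 and 330.5 CPM in KO MN against 359, 353 and 333 CPM in WT MN (0.07 ± 0.10). The ranges of both overlapped. Fn1 had 92.5, 66.6 and 115 CPM in KO MN against 83.9, 61.6 and 109.1 CPM in WT MN (0.11 ± 0.24), higher in KO MN in each of the 3 batches by 0.08 to 0.14 on the log2 scale. Sparc had 42.5, 23.7 and 44.3 CPM in KO MN against 66.0, 27.4 and 36.0 CPM in WT MN (-0.23 ± 0.34). The other six lay between 1.78 and 21.1 CPM in KO MN and between 1.30 and 25.5 CPM in WT MN, with log2 fold changes from -0.30 (Dcn) to 0.17 (Bgn) and SE from 0.25 to 0.50. They were all lowest in KO MN batch 2, and all but Dcn were lowest in WT MN batch 2. The fibroblast and mesenchyme sum there was 103 CPM in KO MN and 87.8 CPM in WT MN, below every other MN library of the same genotype. Endothelial, mural, cartilage, macrophage and neural progenitor sums were also lowest in batch 2 of each MN group. The erythroid, liver and Schwann cell sums were not lowest there in both groups. The motor neuron sum was highest there, at 1590 CPM in KO MN and 1310 CPM in WT MN. The part of these markers was not tested.

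**Figure D5:**
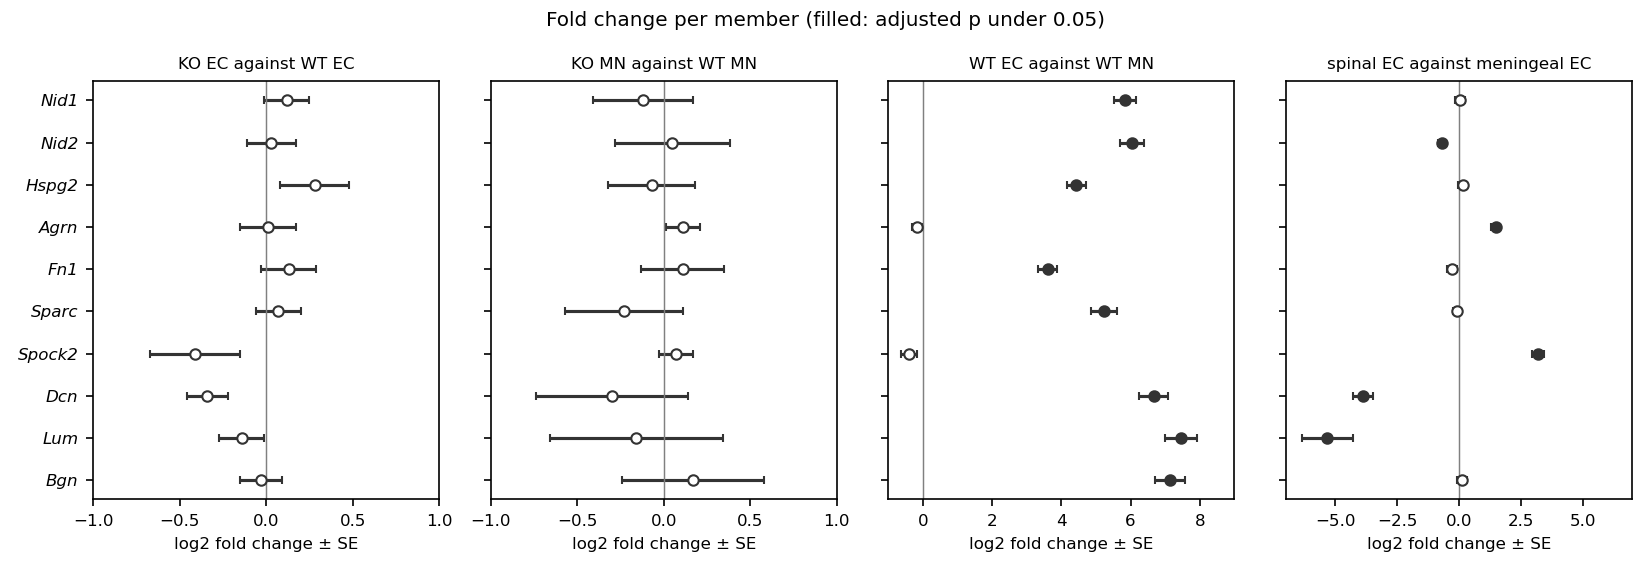
Log2 fold change of each member with its SE (bars) in KO EC against WT EC, KO MN against WT MN, WT EC against WT MN and spinal EC against meningeal EC, with filled points where the adjusted p was under 0.05. The horizontal scales differ between panels; no member is filled in the knockout panels, 8 are filled for cell type and 5 for region.

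Whether the knockout difference itself differed between EC and MN was tested by an interaction. No member and none of the 19266 genes passed (0%), 352 genes had an unadjusted p under 0.05, and DESeq2 called 1 gene. The member estimates, as EC minus MN, lay between -0.48 ± 0.30 for Spock2 and 0.35 ± 0.36 for Hspg2. None of the 10 pathway lists had a gene past the threshold in either knockout comparison or in the interaction.

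The genes most like each member were found by the root mean square difference of log2 CPM, centred within each series, over 21 libraries and 15857 genes. Nid1 was closest to Col4a1, a type IV collagen chain, at 0.17, and to Axl at 0.18. Hspg2 was closest to Pbxip1 (0.22) and to Lama4, an endothelial laminin chain (0.23). Nid2 was closest to Fkbp10, a collagen chaperone, and Kank2 (0.16 each), and Agrn to Nbeal2 and Sema4c (0.15 each). The other members had looser partners: Bgn with Itga11 (0.21), Sparc with Vwa5a and Ccdc102a (0.21 each), Fn1 with Tpcn1 (0.24), Spock2 with Plekhh1 and Lrp8 (0.33 each), Dcn with Ccn4 (0.36) and Lum with Slc6a13 (0.45) and Cldn11 (0.62). These distances are dominated by the differences between groups and are given as a description.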

How the data were processed

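Deposited values are raw read counts per gene for 22 libraries. Per the file headers the authors made them with featureCounts 1.6.4, summing exons by gene name from the GENCODE M22 basic annotation; the knockout series was counted as single reads without strand and the regional series as read pairs with a reverse strand setting, and reads with several alignments were left out. The labels name a stranded kit. Trimmomatic 0.39, STAR 2.5.3a, DESeq2 and mm10 (GRCm38) are named in the submitters' processing notes.

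Libraries were grouped by the labels, and 21 were used: the WT EC batch 2 file was identical to the KO EC batch 1 file and its header names that library. Tests were run in R 4.3.3 with edgeR 4.0.16 (glmQLFit and glmQLFTest) after TMM scaling. Genes were kept by filterByExpr (minimum count 10), and p-values were adjusted over all genes tested by Benjamini-Hochberg and called at 0.05. The SE is the log2 fold change divided by the square root of F. Log2 levels used a prior count of 2. RPKM is CPM per kilobase of the exonic length in the files. The scripts were tested on simulated counts.

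Alternatives were DESeq2 1.42.0, median-ratio scaling, no filter, a filter at 5 CPM, batch as a block, other sets of libraries, and leaving out each library. Labels call the replicate numbers batches, which may pair the libraries. The main tests had no batch term, and batch as a block was an alternative only. Libraries of different numbers were not correlated for comparison. Deviations of same-numbered libraries correlated at r = 0.44 and 0.516 in EC, at 0.379, 0.413 and 0.359 in MN, and at -0.273, -0.0319, 0.303, 0.169 and 0.0377 between regions.

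The 10 members are all described. From each pathway list up to 3 genes per direction and comparison with the smallest p may be named, and for each member the 2 genes of most like pattern. Members, gene lists and tests were chosen with earlier results of these data known. Lists are described by counts and medians, without a test.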

Additional observations from a re-analysis of the deposited data

Results flagged for a closer look

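In 3 of 20 sets of 5 regional libraries (10 members in each of the 2 regions), 1 library stood apart from the other four by more than Dixon's criterion of 0.71 for the gap divided by the range; chance gives about 1 in 20. Nid2 was lowest in spinal EC batch 3, at 311.4 CPM beside 459 to 519 CPM in the other spinal EC libraries. That library also had the lowest endothelial marker sum of spinal EC, 1870 CPM. Dcn was lowest in meningeal EC batch 3, at 401.5 CPM beside 626 to 703 CPM in the other meningeal EC libraries. Bgn was highest in spinal EC batch 2, at 1523 CPM beside 661 to 886 CPM in the other spinal EC libraries, and the mural marker sum was highest there at 9100 CPM.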

How the results depend on the processing

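Regional calls of Agrn, Spock2, Dcn and Lum kept their direction and stayed past the threshold in all 17 alternatives, and so did the calls of the 8 members between WT EC and WT MN in all 18. Nid2 between regions was -0.56 in the ventral cord batches alone, not past the threshold. The whole cord batches alone called 6 members lower and gave -0.32 for Nid1, 0.03 for Sparc and -0.20 for Bgn, against the sign of the pooled values. Leaving out 1 library at a time gave -0.13 to 0.13 for Nid1, -0.15 to 0.01 for Sparc and -0.10 to 0.21 for Bgn. Spock2 was the 1 member called lower between WT EC and WT MN with the wild-type libraries only, with the knockout libraries, and in the range of 0 to 1 with 1 library left out.

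With batch as a replicate block, KO EC against WT EC gave 139 genes higher and 41 lower, with 1 member, Hspg2, higher, and KO MN against WT MN gave 2 higher and 4 lower. The ventral minus whole cord test gave 1 higher and 3 lower with the block. The block changed no other call of a member. DESeq2 gave 24 higher and 6 lower in EC, 4 lower in MN and 1 higher in the interaction. No filter gave 2 lower in EC and 4 lower in MN, and -0.01 for Agrn in EC. The 5 CPM filter gave 0 lower in MN, where it left no value for Dcn, and the fit of all knockout-series libraries gave 1 lower in EC and 1 lower in MN. Leaving out 1 library gave 0 to 1 lower in EC, 0 to 1 higher and 0 to 1 lower in MN, and 0 to 1 lower in the interaction. It moved the uncalled EC values of Nid2 (-0.05 to 0.13), Agrn (-0.06 to 0.13), Fn1 (-0.01 to 0.20) and Bgn (-0.15 to 0.11) across 0. In MN the same held for Fn1 (-0.10 to 0.33), Sparc (-0.47 to 0.22), Spock2 (-0.02 to 0.14), Dcn (-0.65 to 0.17) and Bgn (-0.16 to 0.58).

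The ventral minus whole cord difference depended most on the setting: 25 genes were higher and 73 lower, against 319 and 891 by DESeq2, 49 and 256 with median-ratio scaling, 665 and 1115 without the filter, 46 and 190 at 5 CPM, and 0 to 499 higher and 0 to 691 lower with 1 library left out, the most without spinal EC batch 2. The members called there were 3 by DESeq2, 3 without the filter and 0 to 2 with 1 library left out. The cause was not tested. With 2 WT EC libraries the EC comparison has few residual degrees of freedom, and fewer still with the batch block. With 1 library left out a lone WT EC library is assumed to vary like the others. At 18 reads of Lum in each whole cord spinal EC library its ratio there has a wide counting error.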
